A study of Zea mays with 4 samples.

Results

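Abundant transcripts that differed little between FI, the female inflorescence of maize, and TI, the top internode of its stem, were chosen by their FPKM in the 4 libraries. FPKM is the number of fragments of a gene, scaled to the length of its gene model and to the mapped fragments of the library. The 500 genes with the highest mean FPKM were taken, and a gene was kept when its highest library was at most 25% above its lowest. The rule kept 94 genes, which are called steady genes here, out of 39179 genes in the FPKM table (18.8% of the 500). They were set against EF1a (Zm00001d036904), the elongation factor 1-alpha gene in the study's list of qPCR primers, a usual reference gene. The study's methods give qPCR results as starting numbers of molecules and do not say how EF1a entered them. FI and TI came from greenhouse-grown Puma hybrid plants at 60 days after sowing (DAS, stage R1). The ears of these plants were bagged before the silks emerged, and both tissues were collected before pollination. Each tissue had 2 libraries, which the study's methods call biological replicates. P-values therefore rest on the spread between 2 samples per tissue, which the tests used here moderate with the spread of other genes.

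In the deposited count table the FI libraries had 2431447 and 2072230 total counts and the TI libraries had 1817889 and 1455729, so TI was the shallower tissue. The TI libraries were less alike than the FI libraries. Genes of inflorescence development in the count table (12 of the 20 listed were found) summed to 615 and 535 CPM (counts scaled to the total count of the library and expressed per 1e6 counts) in FI, against 73.7 in TI replicate 1 and 306 in TI replicate 2. Of these 12 genes, 6 were at 0 in TI replicate 1 and 2 in TI replicate 2. Both FI libraries were above both TI libraries in 10 of them. The gene kn1 ran the other way, with 8.23 and 5.79 CPM in FI, against 24.2 and 14.4 CPM in TI. On FPKM, FI was above TI in this way in 33% of the 19531 genes that averaged at least 1 FPKM. TI was above FI in 27.5% of them. Gene models matched to symbols of green tissue genes (10 models for 7 of 13 symbols) summed to 327 and 266 CPM in FI, against 1048 in TI replicate 1 and 441 in TI replicate 2. In these sums TI replicate 2 thus lay between FI and TI replicate 1 on both lists, although not every gene followed its list. On the green tissue list, pdk1 and pep1 each matched several models, so its sums may include other genes. FI was above TI in 2 of the 10 models and TI above FI in 7. Those 2 were such matches. GRMZM2G097821 (PDK1) had 71.2 and 61.8 CPM in FI, against 36.3 and 54.3 CPM in TI. GRMZM5G899080 (Pep1) had 7.40 and 11.6 CPM in FI, against 0.550 and 2.06 CPM in TI. Genes of the secondary wall (4 of 8 found) summed to 79.8 and 81.6 CPM in FI, against 123 and 117 CPM in TI. Of these 4 genes, 2 had FI above TI and 1 had TI above FI. The latter, GRMZM5G844562 (BM1, CAD2), had 22.2 and 23.6 CPM in FI, against 89.1 and 71.4 CPM in TI. It made up most of the sum in TI, so the higher TI sum rests on this gene. The part of these differences in the values given here was not tested.

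A qPCR reference gene is a gene to whose level the other genes are scaled, so that unequal amounts of cDNA cancel out. Its own change between tissues is passed on, with the opposite sign, to every gene divided by it. Abundant genes of protein synthesis, the cytoskeleton and primary metabolism are the usual choices in plants. EF1a brings aminoacyl-tRNA to the ribosome during elongation and is encoded in maize by several closely similar genes. Because the deposited values chose the steady genes, the likeness of FI and TI in these genes is a description of the choice and was not tested.

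The primers listed for EF1a in the study's primer table are shown because they define the amplicon that stands for EF1a in qPCR. They have 18 and 20 bases and are written 5′ to 3′.
EF1a forward primer: tgacatgaggcaaacggt
EF1a reverse primer: gaaccagccagacacatcat

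The steady genes had mean FPKM between 94.0 and 560, with a median of 124. The median of the other 406 genes of the 500 was 140. Mean FPKM was at least 200 in 17 steady genes and at least 300 in 5. The ratio of the highest to the lowest library was between 1.04 and 1.2498 in the steady genes, with a median of 1.17, and 13 of them stayed within 1.1. In the other 406 genes the median ratio was 1.92, with 192 genes above 2 and 65 above 5. The annotation used here does not pair the identifiers of these 94 genes with names, so they are given by identifier only and no function is stated for them.

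**Figure D1:**
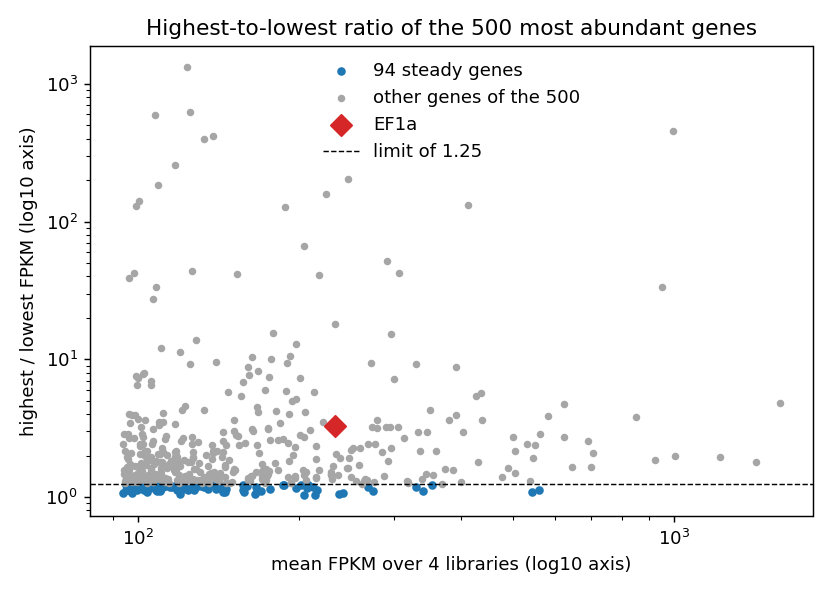
Ratio of the highest to the lowest FPKM of the 4 libraries against mean FPKM, both on log10 axes, for the 500 genes with the highest mean FPKM (1 point per gene; 2 genes listed at 0 in a library are not drawn). The 94 steady genes lie under the dashed limit, 25% above the lowest library, by construction, and EF1a (diamond) lies at a ratio of 3.30.

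Among the steady genes, the most abundant was Zm00001d006760, with 532.5 and 547.1 FPKM in FI, against 564.6 and 596.3 FPKM in TI. It ranked 17th of all genes, and its higher FI library stayed below its lower TI library. Zm00001d041760, ranked 20th, had 551.9 and 515.7 FPKM in FI, against 563.0 and 538.5 FPKM in TI, with the tissues overlapping. These 2 genes were the only steady genes above 500 FPKM. In Zm00001d012161, FPKM was 340.4 and 381.8 in FI, against 311.8 and 378.1 in TI, and replicate 2 was the higher library in both tissues. For Zm00001d028786 it was 346.7 and 325.1 in FI, against 359.8 and 331.8 in TI. Here replicate 1 was the higher library in both tissues.

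Zm00001d002451 had 361.4 and 355.0 FPKM in FI, against 303.1 and 303.5 FPKM in TI. It differed between tissues and hardly between replicates, and passed the rule with a ratio of 1.19. Zm00001d021061 had 292.9 and 262.6 FPKM in FI, against 269.9 and 270.6 FPKM in TI, so that FI replicate 1 stood above the other 3 libraries. The ratio of Zm00001d002339 was 1.19, with 242.9 and 274.1 FPKM in FI, against 270.4 and 289.1 FPKM in TI. Zm00001d012878, the tenth by abundance, had 205.0 and 213.2 FPKM in FI, against 213.7 and 230.4 FPKM in TI. Zm00001d029543 and Zm00001d042525, the 2 genes between these in abundance, were also among the 10 with the lowest ratios.

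The lowest ratio, 1.04, was that of Zm00001d028117, which had 212.4 and 209.7 FPKM in FI, against 216.5 and 217.5 FPKM in TI. Zm00001d035902 had nearly the same level and ratio, with 201.5 and 203.9 FPKM in FI, against 209.2 and 200.8 FPKM in TI. Next came Zm00001d031611, with 121.3 and 123.8 FPKM in FI, against 117.7 and 117.2 FPKM in TI. Only the first and the third of these genes had tissues that did not overlap, the first with TI above FI and the third with FI above TI. Zm00001d042525 had 240.3 and 230.7 FPKM in FI, against 244.1 and 232.9 FPKM in TI. It had the highest level of the 5 steadiest genes. Zm00001d048157 had 166.8 and 164.4 FPKM in FI, against 160.0 and 169.8 FPKM in TI, with both FI libraries between those of TI.

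The sixth gene by ratio, Zm00001d053632, was also the last by abundance, at rank 500, with 90.7 and 94.3 FPKM in FI, against 94.1 and 96.8 FPKM in TI. Zm00001d052056 had 100.4 and 94.6 FPKM in FI, against 94.0 and 101.1 FPKM in TI. Zm00001d029543 had 247.1 and 230.3 FPKM in FI, against 241.5 and 248.1 FPKM in TI. In both genes FI replicate 2 or TI replicate 1 was the lowest library and the tissues overlapped. Zm00001d046336 had 144.5 and 138.9 FPKM in FI, against 150.7 and 143.4 FPKM in TI. Zm00001d050193, the tenth, had 138.8 and 142.6 FPKM in FI, against 151.4 and 147.9 FPKM in TI.

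At the limit, genes on either side had nearly equal ratios. The 3 steady genes nearest to it were Zm00001d032760 (ratio 1.243), Zm00001d042453 (1.248) and Zm00001d006049 (1.2498). The 3 nearest genes that were left out were Zm00001d013159 (1.2504), Zm00001d004676 (1.254) and Zm00001d038832 (1.256). Zm00001d013159 was more abundant than all but 2 steady genes, with 355.4 and 337.0 FPKM in FI, against 421.4 and 364.7 FPKM in TI. The limit thus divides a continuous range of ratios.

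The log2 ratio of FI over TI (geometric means of FPKM) lay between −0.23 and 0.25 in the steady genes, with a median of −0.004. FI was the higher tissue in 46 of them and TI in 48. The tissues did not overlap, with FI above TI, in 17 steady genes, against 33% of the 19531 genes that averaged at least 1 FPKM. They did not overlap, with TI above FI, in 27, against 27.5% of all genes, and the tissues overlapped in the other 50. Over both directions the share among all genes was 60.5%. The rule used these values, and nothing is read from the difference. FI replicate 1 was the highest library of 30 steady genes and FI replicate 2 of 14, against 24 for TI replicate 1 and 26 for TI replicate 2. FI replicate 1 was the lowest library of 11 and FI replicate 2 of 38, against 34 for TI replicate 1 and 11 for TI replicate 2. Each library was thus the highest of some steady genes and the lowest of others.

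**Figure D2:**
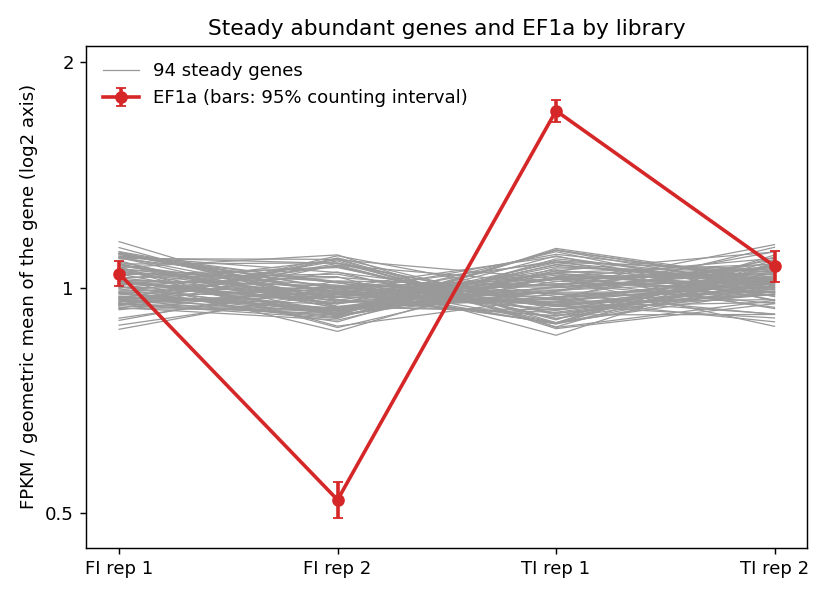
FPKM in each library divided by the gene's geometric mean over the 4 libraries (log2 axis), with a grey line for each of the 94 steady genes and a red line for EF1a. Bars on EF1a are exact Poisson 95% intervals of its fragments. The steady genes stay within 25%, while EF1a was at 0.521 of its mean in FI replicate 2 and at 1.72 times its mean in TI replicate 1.

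Within a tissue, the higher replicate of a steady gene was a median of 1.07 times the lower in FI and 1.06 times in TI. In the other 406 genes these medians were 1.16 in FI and 1.36 in TI. The TI replicates differed by a larger ratio than the FI replicates in 46 of the 94 steady genes (48.9%) and in 67.2% of the other genes. The rule used these values and limits both ratios of a steady gene, so nothing is read from the contrast with the other genes. Of the 500, 71.4% stayed within 25% between the 2 FI libraries, but 49% between the 2 TI libraries. The share was 32.8% between either FI library and TI replicate 1. Between TI replicate 2 and the FI libraries it was 46.6% for replicate 1 and 48.4% for replicate 2. Without TI replicate 1, the same rule kept 181 genes, against 113 to 141 with another library left out. The ratio of a gene cannot rise when a library is dropped. The steady genes thus stayed within the limit by construction.

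The share of genes within the limit was 9% at ranks 1 to 100 by mean FPKM, 18% at ranks 101 to 200 and between 22% and 23% in each later 100 up to rank 500. Below the 500 it was 20.8% at ranks 501 to 1000, 16.3% at ranks 1001 to 2000, 18.9% at ranks 2001 to 4000 and 14.4% at ranks 4001 to 8000. In the genes after rank 8000 it was 5.86%. Down to rank 8000, the share at ranks 1 to 100 was thus the lowest of these groups. Over all 19531 genes that averaged at least 1 FPKM, 1991 genes (10.2%) were within the limit.

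The FPKM of a gene moves in equal steps of 1 fragment. For genes above 0 in at least 2 libraries, the number of fragments behind each value was therefore recovered from FPKM. The length of the gene model was recovered for all but a few of them. A steady gene had a median of 477.5 fragments in its lowest library. The fewest were the 128 fragments of Zm00001d049674, which also had the shortest gene model (245 bases). The median model length was 1198 bases in the steady genes (245 to 4246) and 1533.5 bases in the other 406 genes. It was 2001 bases in the 19526 genes with a recovered length among all that averaged at least 1 FPKM. This length was not part of the rule, although FPKM is divided by it. The steady genes made up between 3.88% and 4.17% of summed FPKM and between 1.99% and 2.06% of mapped fragments in each library.

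A dispersion index compared the spread of the fragments with counting error. It is the chi-square of the 4 fragment numbers against the mapped totals divided by its 3 degrees of freedom, and is near 1 where counting error alone is present. Its median was 2.94 in the steady genes, with 12 genes at or under 1 and 17 above 5. The other 406 genes had a median of 80.1. The rule limits the spread of the steady genes in these same libraries, so nothing is read from this difference. Zm00001d035902 had the lowest index of the steady genes, 0.203, with 757 and 685 fragments in FI, against 598 and 465 fragments in TI. Zm00001d028117, with 1698 and 1499 fragments in FI, against 1317 and 1072 fragments in TI, had an index of 0.385. The highest index, 19.2, was that of Zm00001d053765, with a ratio of 1.22 and a model of 3096 bases. A gene within the limit could therefore still vary by far more than counting error when its fragments were many. PCR reads without molecular identifiers are not independent molecules, so the index and all intervals cover counting error only.

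EF1a had 223 and 111 FPKM in FI, against 368 and 228 FPKM in TI. Its mean was 167 ± 79.1 FPKM in FI and 298 ± 98.8 FPKM in TI (SD, n = 2 each). Its TI libraries were both above its FI libraries, but FI replicate 1 and TI replicate 2 differed only 1.02-fold. The replicates of FI differed 2.00-fold and those of TI 1.61-fold, with replicate 1 the higher library in both tissues. From its highest to its lowest library EF1a varied 3.30-fold, and 402 of the 500 genes (80.4%) varied less. By mean FPKM it ranked 98th, and 9 of the steady genes were more abundant.

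The fragments of EF1a were 2751 and 1228 in FI, against 3451 and 1735 in TI, on a gene model of 2706 bases. The exact Poisson 95% interval of its FPKM was 215 to 232 in FI replicate 1 and 105 to 118 in FI replicate 2, against 356 to 381 in TI replicate 1 and 218 to 239 in TI replicate 2. Only the intervals of FI replicate 1 and TI replicate 2 overlap. Its dispersion index was 490, against at most 19.2 in the steady genes, which were chosen for a small spread in these libraries.

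Between FI and TI, the log2FC of EF1a was −0.87 with a standard error of 0.46 (FDR = 0.334 by limma) on the log2(FPKM + 1) scale. By limma, 0 of 19531 genes had an FDR under 0.05 (0%), and 3524 (18.0%) had an unadjusted p under 0.05. The lowest FDR of all genes was 0.209, so EF1a was among genes of which none passed. On the recovered fragments, the log2FC of EF1a was −0.88 with a standard error of 0.46 (FDR = 0.353 by the quasi-likelihood (QL) test of edgeR). The exact test of edgeR on these fragments, which called 889 genes (4.9%), gave EF1a an FDR of 0.378. Each library carried much of the value. On the same log2(FPKM + 1) scale EF1a had a log2FC of −1.37 without FI replicate 1, −0.38 without FI replicate 2, −0.53 without TI replicate 1 and −1.22 without TI replicate 2. All 4 values were negative, and none had an FDR under 0.05 by limma.

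The geometric mean of the 94 steady genes was 142.1 and 137.3 FPKM in FI, against 138.7 and 142.0 FPKM in TI. It varied 1.03-fold, as the rule had chosen these genes for their likeness in the same libraries. Divided by it, EF1a was at 1.57 and 0.812 in FI, against 2.65 and 1.61 in TI. With the 10 steadiest genes as divisor, EF1a was at 1.42 and 0.718 in FI, against 2.32 and 1.44 in TI.

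The primer table of the study lists 18 genes beside EF1a, mostly of starch and sucrose metabolism and transcription factors, and 0 of them are steady genes. FPKM was above 0 in all 4 libraries in 17, of which 4 had the higher geometric mean in FI and 13 in TI. The log2 ratio of FI over TI of EF1a was −0.88 on FPKM, and dividing each library by EF1a would add 0.88 to the log2 ratio of every gene alike. That amount rests on single libraries, as the values of EF1a with each library left out show. The qPCR values themselves were not analysed here, and it is not stated whether they were divided by EF1a.

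Of the 17 genes, 4 had a log2 ratio between that of EF1a and 0, so that their sign depends by arithmetic on whether EF1a is used as a divisor. Bt2 (Zm00001d050032), named for the small subunit of endosperm AGPase, had 13.2 and 16.3 FPKM in FI, against 24.5 and 20.1 FPKM in TI, a log2 ratio of −0.60. Sh2 (Zm00001d044129), named for the large subunit of that enzyme, had 3.53 and 3.66 FPKM in FI, against 5.38 and 3.98 FPKM in TI, a log2 ratio of −0.36. Agplemzm (Zm00001d039131), another large subunit, had 64.0 and 49.4 FPKM in FI, against 60.0 and 58.5 FPKM in TI, a log2 ratio of −0.07. Sut2 (Zm00001d041192), a sucrose transporter by the primer table, had 26.3 and 21.4 FPKM in FI, against 35.4 and 34.4 FPKM in TI, a log2 ratio of −0.55. With a library left out, the log2FC of EF1a was smallest in size at −0.38, without FI replicate 2. The log2 ratios of these 4 genes use all 4 libraries and were not recomputed without it, so they are not set against that value. These ratios were not tested.

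In the count table, which uses an earlier annotation, the primer table pairs EF1a with GRMZM2G343543. This gene model had 21 and 17 counts in FI, against 54 and 32 counts in TI, and ranked 9572nd. The recovered fragments of EF1a were between 54.2 and 131.0 times these counts. The totals differed far less, with 2431447 counts and 4552953 mapped fragments in FI replicate 1. Sut1 (GRMZM2G034302) likewise had 0 and 0 counts in FI, against 1 and 1 in TI. Its FPKM was 86.5 and 84.3 in FI, against 434 and 185 in TI. The level of a single gene can thus differ widely between the tables, which limits every result on counts, and the reason was not tested. The log2FC on counts was −1.67 with a standard error of 0.38 (unadjusted p = 0.00679, FDR = 0.233 by the QL test of edgeR). By that test 0 of 15479 genes passed an FDR of 0.05, and 2443 (15.8%) had an unadjusted p under 0.05. By edgeR's exact test, which called 719 genes (4.65%), the FDR of EF1a was 0.0191, lower in FI. Without TI replicate 2 the QL test gave −1.84 with an FDR of 0.00540. The call thus depends on the test and on that library.

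Gene models annotated as elongation factor 1-alpha numbered 5 in the count table with GRMZM2G343543, and the other 4 had more counts and a log2FC closer to 0. EF1A (GRMZM2G153541) had 1410 and 1195 counts in FI, against 1313 and 937 counts in TI. In CPM it varied 1.252-fold, just over the limit that was set for the steady genes. Elfa2 (GRMZM2G149768) had 568 and 490 counts in FI, against 483 and 388 counts in TI, and its CPM varied 1.14-fold. Elfa3 (GRMZM2G154218), with 243 and 207 counts in FI, against 192 and 144 counts in TI, varied 1.07-fold. The model named both elfa7 and elfa8 (GRMZM2G110509) was closer to GRMZM2G343543, with 86 and 58 counts in FI, against 113 and 66 counts in TI, and varied 2.22-fold.

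The log2FC on counts was −0.29 for EF1A (standard error 0.20), −0.23 for elfa2 (0.18), −0.09 for elfa3 (0.21) and −0.82 for elfa7/elfa8 (0.33). The lowest FDR of these 4 was 0.323 and the highest 0.851 by the QL test of edgeR. All 5 models summed to 957 and 949 CPM in FI, against 1185 and 1076 CPM in TI, a range of 1.249-fold. GRMZM2G343543 made up 0.902% and 0.864% of the family's counts in FI, against 2.51% and 2.04% in TI. Reads of such similar copies can be assigned to one or the other, so values of single copies are uncertain.

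**Figure D3:**
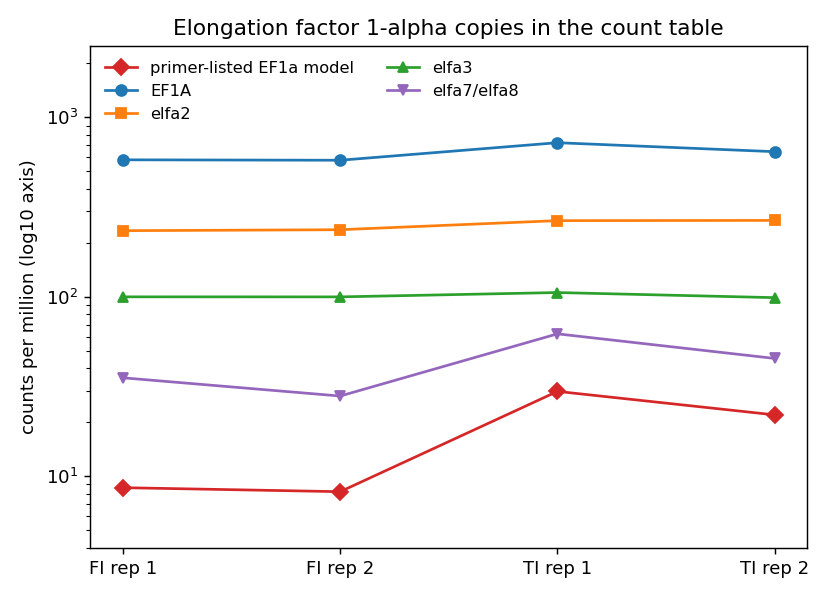
CPM (log10 axis) of the 5 gene models annotated as elongation factor 1-alpha in each library, with lines joining the values of 1 gene model. The model paired with the qPCR primers (red diamonds) is the lowest of the 5, at 8.64 and 8.20 in FI, against 29.7 and 22.0 in TI, while EF1A (blue circles) is the highest.

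Applied to the CPM of the count table, the rule kept 80 of the 500 gene models with the highest mean (16%), of which 55 have a RefSeq entry. These models could not be paired with the 94 steady genes, and few of them have a name that tells what they encode. Among those that do were the aldolase genes ald1 and aldolase2, the translation factor gene eif5a, the ribosomal protein genes rps4 and rpl17, and GF14-12, a 14-3-3 protein gene. Eif5a (GRMZM2G113696) had 1955 and 1699 counts in FI, against 1545 and 1254 counts in TI, and its CPM varied 1.07-fold. Ald1 (GRMZM2G057823), which encodes an enzyme of glycolysis, had 2304 and 1808 counts in FI, against 1529 and 1296 counts in TI, and varied 1.13-fold. Rps4 (GRMZM2G125271) had 1406 and 1200 counts in FI, against 1085 and 905 counts in TI, and varied 1.08-fold. Other models of the same names among the 500 were outside the limit. Another rps4 model (GRMZM2G035017) varied 1.35-fold, and a model named tif5A (GRMZM2G144030) varied 1.31-fold.

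By function, 3 of the 6 ribosomal protein genes among these 500 were within the limit, 1 of 4 translation factor genes and both aldolase genes. Over all 500, 16% were within the limit. Of 8 chaperone and folding genes, 0 were within it, and their median ratio was 4.29, against 1.57 for all 500. Part of this spread lay between replicates. In Hsp70, CPM was 7115 and 2125 in FI, against 2543 and 1441 in TI. Hsp101 and hsp82 also had the higher value in replicate 1 of both tissues. In bip1 and crt2, TI replicate 1 was below TI replicate 2. By the QL test of edgeR, 0 genes of these lists had an FDR under 0.05. An unadjusted p under 0.05, which 15.8% of all genes had, was found for 5 of 28 chaperone genes, all with higher counts in FI. It was also found for 7 of 35 ribosomal protein genes and 4 of 12 translation factor genes, all with higher counts in TI. These 4 include GRMZM2G343543, the EF1a model. On the other lists it was found for 3 of 9 histone genes and 1 of 12 genes of glycolysis and central carbon, all higher in FI. Of 17 genes of actin, tubulin and their partners, 3 were higher in FI and 1 in TI. Of 5 genes of ubiquitin and conjugating enzymes, 1 was higher in TI. For 14-3-3 proteins it was 0 of 1. The lists rest on gene symbols and hold few genes, and nothing particular to a list is read from them.

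Usual reference genes of qPCR were looked up in the count table, and 32 were found for actin, tubulin, ubiquitin, ubiquitin-conjugating enzymes, GAPDH and EF1a. Of these, 5 were among the 500 highest, and 0 of the 5 were within the limit, against 16% of all 500. Elfa2 and elfa3, both below the 500 highest, were the only 2 of the 28 with counts in all libraries whose CPM stayed within the limit. The share over all gene models of any rank was not computed for counts, and nothing is read from these numbers of genes. Besides EF1A, the 5 were the actin gene Maz95, which varied 1.47-fold, the ubiquitin gene MUB3, which varied 2.20-fold, ubc7, which varied 2.21-fold, and the tubulin model named TUA1 and TUA2, which varied 2.22-fold. Ubc7 had 917 and 756 counts in FI, against 1465 and 906 counts in TI, and MUB3 had 1175 and 752 counts in FI, against 1450 and 577 counts in TI. In CPM, TI replicate 1 of both genes stood above the other 3 libraries. TUA1/TUA2 ran the other way, with 2638 and 1959 counts in FI, against 890 and 1030 counts in TI. Of 26 reference genes with enough counts, 0 passed an FDR of 0.05 by the QL test of edgeR (0% of all genes), and 7 had an unadjusted p under 0.05, against 15.8% of all genes.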

How the data were processed

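The authors deposited raw counts per transcript (labels: FastQC 0.11.2, Trimmomatic, TopHat2 2.0.13, B73 RefGen_v3) and FPKM per gene under B73 RefGen_v4 identifiers. The methods name TopHat for alignment and an update of the analyses in CLC Genomics Workbench, without saying which made this FPKM table. The counting tool is not given in the sources used here. Authors' comparison columns (fold changes, p-values, FDR) were not used. A count column named floral stem was taken as FI, the only other tissue.

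Fragments were recovered from FPKM for 24149 of 24149 genes above 0 in at least 2 libraries (mapped totals 4552953 and 4071536 in FI, 3464635 and 2807120 in TI). Model lengths were recovered for 24145 of these genes. Of the genes above 20 FPKM in FI replicate 1, 95.97% gave a whole length at once, and the fragments of 1007 genes were multiplied to give one. FPKM was tested as log2(FPKM + 1) with limma 3.58.1 at a mean of at least 1, which understates changes of low genes. Counts were summed to 26167 gene models, kept by filterByExpr (minimum count 10, total 15), normalized by TMM and tested by the quasi-likelihood test of edgeR 4.0.16 (R 4.3.3, Benjamini-Hochberg FDR, FI over TI). A two-sided exact permutation test of 2 against 2 cannot go below 0.333. Methods were tested on simulated data.

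Genes named are EF1a and its copies, the 10 most abundant and 10 steadiest genes, 3 on each side of the limit, members of function lists and reference genes; primer-listed genes, Zm00001d049674 and Zm00001d053765 were chosen after their values were seen. Lists were matched on RefSeq symbols; those of vesicle traffic, respiration, methionine cycle, RNA binding and signalling could not be matched cleanly and are not reported. The members and lists were chosen with earlier results of these data known. Alternatives were other limits, numbers of genes, scalings, pseudocounts, filters and tests (DESeq2 1.42.0), each library left out and a replicate block; the tests on recovered fragments were added after seeing the data. Python 3.11.15 was used for other steps.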

Additional observations from a re-analysis of the deposited data

How the results depend on the processing

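The number of steady genes followed the limits of the rule, with 13 at a ratio of 1.1, 212 at 1.5, 37 among 250 genes and 198 among 1000. Leaving out each library in turn gave 113 to 181 genes, and the ratio of a gene cannot rise when a library is dropped. Rescaling FPKM by TMM factors or by medians of ratios gave 93 genes each, with 85 and 81 shared with the 94. For EF1a on FPKM, the log2FC was −1.37 to −0.38 with each library left out and had an FDR over 0.05 under every alternative run. On counts it was −1.84 to −1.38 with each library left out, and without TI replicate 2 the FDR was 0.00540. The exact test gave −1.67 with an FDR of 0.0191. Genes with an FDR under 0.05 numbered 889 by the exact test on fragments and 719 by that test on counts, 327 by DESeq2 and 477 with no filter on low counts. Leaving out each library gave 0 to 5013 such genes on FPKM and 0 to 4072 on counts, with 8 and 410 without TI replicate 1 and the highest numbers without TI replicate 2. The lone library left in a tissue was then assumed to vary like the other tissue. The replicate numbers are not stated to pair the samples (correlation of deviations 0.174). With the replicate block, 0 genes had an FDR under 0.05 in either table. On FPKM, EF1a then had a log2FC of −0.87 (unadjusted p = 0.0269, FDR = 0.250 by limma). Its standard error was 0.24, against 0.46 without the block. On counts EF1a had a log2FC of −1.65 with the block (FDR = 0.304, QL test of edgeR). Depth limits low genes, and 2 libraries per tissue limit every test.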
